A study of Mus musculus with 6 samples.

Results

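The genes described here are the Eph receptors and their ephrin ligands, the Slits and their Robo receptors, and the netrins with their receptors of the DCC, neogenin and UNC5 families. They were taken by symbol, as every gene of the deposited expression table whose symbol is that of an Eph, ephrin, Slit, Robo, netrin, netrin-G, Unc5, Dcc or Neo1 gene. This choice was made with earlier results of these data known. The rule found 41 of the 23029 genes in the table, of which 17 encode ligands (5 ephrins A, 3 ephrins B, 3 Slits and 6 netrins) and 24 encode receptors (9 Eph receptors A, 5 Eph receptors B, 4 Robos and 6 netrin receptors). RNA sequencing had been done on cells of mouse dorsal root ganglia (DRG), where sensory neurons of trunk and limbs have their cell bodies, after fluorescence-activated cell sorting into 3 subsets with 2 libraries each.

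All 6 libraries came from mice of the same genotype, GINIP+/mcherry, and the subsets differed in their gate. The cells called DP (double-positive) bound the lectin IB4 and were GINIP+, and the labels give them as Mrgprd+ neurons, which end as free nerve endings in the skin. The C-LTMR subset, unmyelinated low-threshold mechanoreceptors, was IB4- and GINIP+. The DN (double-negative) subset was IB4- and GINIP- and held the remaining cells, a mixture rather than 1 cell type. The labels give neither the age of the mice nor the number of animals behind a library, and they do not say that the 2 libraries of a subset came from separate animals, and the p-values below therefore reflect no more than the scatter of these libraries.

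Ephrins are bound to the cell surface, by a lipid anchor in the A class and a transmembrane segment in the B class, and Eph receptors are receptor tyrosine kinases, so the pair signals where cells touch and can signal into both cells. Slits are secreted proteins best known for repelling growing axons through Robo receptors. Netrins are laminin-related proteins that attract axons through DCC and neogenin and repel them through UNC5 receptors; all these families are also used outside the nervous system, above all in blood vessels.

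Sorted subsets carried the markers of their labels. The summed level of 10 Mrgprd nociceptor markers was 1798 and 1764 RPKM (reads per kilobase of gene per M mapped reads) in DP, 369.0 and 345.6 in C-LTMR and 107 and 103 in DN, and that of 8 C-LTMR markers was 221 and 228, 1531 and 1546, and 43.1 and 27.4 RPKM in the same order. DN was rich in markers of cells other than neurons: 8 satellite glia markers summed to 7434 and 17265 RPKM against 734 to 2005 in the other 4 libraries, and 9 endothelial markers to 269 and 462 against 3.05 to 6.39. The sums were 326 and 469 against 7.20 to 24.1 for 9 mural cell and fibroblast markers, and 1512 and 1433 against 541 to 1354 for 8 Schwann cell markers. Peptidergic nociceptor and thermoreceptor markers (7 genes) summed to 8913 and 8056 in DN against 1333 to 1660, and 9 myelinated neuron markers to 129 and 102 against 65.7 to 125. Immune markers (9 genes) summed to 225 and 252 in DP, 1.34 and 1.54 in C-LTMR and 41.1 and 71.9 in DN. Replicate libraries correlated with r of 0.986 to 0.994 across genes, and depth, estimated from the size of the smallest values, was 32.3 to 42.1 M reads.

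Promoters are shown for Ntn5, Robo4 and Unc5a, because each had, of the members with a RefSeq promoter sequence, the largest called difference in 1 of the 3 comparisons of subsets (C-LTMR against DN, DP against DN and DP against C-LTMR). Each line gives the 250 bases before the RefSeq start on GRCm38.p6, and capitals mark matches to 5 short motifs searched on both strands: the TATA box (TATAAA), the GC box (GGGCGG), the CCAAT box, the Runx motif (TGTGGT) and the ETS motif (CCGGAAG). The windows are chr7:45683772-45684021, chr9:37401722-37401971 and chr13:54949161-54949410, all on the plus strand.
Ntn5: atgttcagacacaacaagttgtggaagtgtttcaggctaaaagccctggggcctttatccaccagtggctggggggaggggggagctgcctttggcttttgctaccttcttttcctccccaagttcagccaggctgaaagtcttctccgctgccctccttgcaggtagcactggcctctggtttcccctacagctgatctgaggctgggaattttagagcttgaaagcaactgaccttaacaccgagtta
Robo4: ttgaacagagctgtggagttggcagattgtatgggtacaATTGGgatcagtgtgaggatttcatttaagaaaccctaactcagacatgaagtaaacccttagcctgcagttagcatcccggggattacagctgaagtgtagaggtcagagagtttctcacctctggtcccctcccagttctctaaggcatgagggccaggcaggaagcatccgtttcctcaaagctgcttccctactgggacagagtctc
Unc5a: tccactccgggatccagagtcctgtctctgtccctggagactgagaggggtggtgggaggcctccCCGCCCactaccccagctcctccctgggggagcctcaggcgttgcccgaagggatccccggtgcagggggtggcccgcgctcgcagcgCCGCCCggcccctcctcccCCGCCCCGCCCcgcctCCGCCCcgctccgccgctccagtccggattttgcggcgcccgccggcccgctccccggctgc
The Unc5a window was 76.8% G and C with 25 CpG dinucleotides and held 5 GC boxes, of which a neighbouring pair shares 1 base. The Ntn5 window (52.8%, 2 CpG) held none of the 5 motifs, and the Robo4 window (49.6%, 2 CpG) held 1 CCAAT box, read on the opposite strand. Across 32851 promoters of this length the median was 52.4% G and C with 6 CpG, and across the 36 members with an entry it was 65.2% with 16.5 CpG. A GC box occurred in 25 of the 36 members' windows and in 32.7% of all windows, a CCAAT box in 14 and 33.8%, a TATA box in 2 and 12.4%, a Runx motif in 3 and 14.05%, and an ETS motif in 1 and 6.91%. Members without an entry are Slit1, Efnb3, Dcc, Unc5d and Ntn1.

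Ligand expression was dominated by 1 gene. Efna1, a lipid-anchored ephrin that binds Eph receptors of the A class, made up 76.4% of the summed RPKM of the 17 ligands in DP, against 41.3% in the C-LTMR libraries and 53.6% in DN. For DP, C-LTMR and DN, in this order, the ligand sums were 94.2 ± 0.034, 93.4 ± 3.38 and 80.5 ± 1.82 RPKM (mean ± SD, n = 2). The receptor sums were 27.4 ± 3.22, 35.1 ± 3.55 and 41.9 ± 3.40 RPKM, and the share of Robo2 in them was 50.7%, 40.2% and 17.6%. So every subset held more RNA of ligands than of receptors per unit of length, and the families that made up the sums differed.

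**Figure D1:**
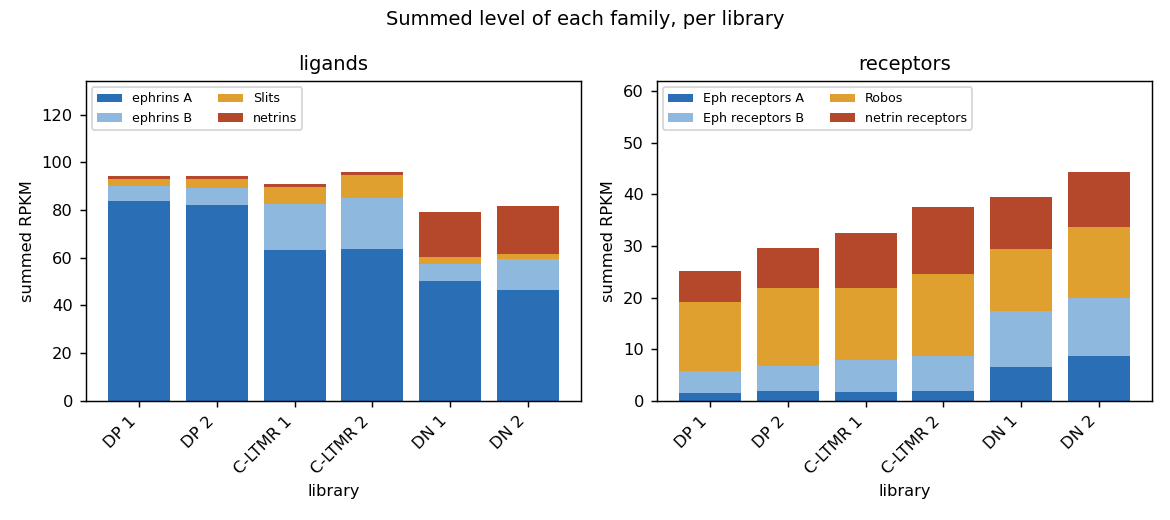
Summed RPKM of each gene family in each of the 6 libraries, ligands in one panel and receptors in the other, as stacked bars that start at 0. The ephrin A segment is largest among ligands in every library, the netrin segment is tall in both DN libraries (18.8 and 20.3 RPKM) and thin in the other 4 (1.09 to 1.31).

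In the same order, ephrin A RNA summed to 83.0 ± 1.17, 63.5 ± 0.212 and 48.4 ± 2.52 RPKM and ephrin B RNA to 6.63 ± 0.638, 20.4 ± 1.56 and 9.83 ± 3.94. For Slits the sums were 3.502 ± 0.558, 8.22 ± 1.72 and 2.67 ± 0.625, and for netrins 1.09 ± 0.00606, 1.23 ± 0.108 and 19.6 ± 1.02. The ephrin B and Slit sums were highest in both C-LTMR libraries and the netrin sums in both DN libraries, with no overlap with the other subsets. Among receptors, Eph A RNA summed to 1.68 ± 0.22, 1.82 ± 0.179 and 7.53 ± 1.5 RPKM and Eph B RNA to 4.57 ± 0.375, 6.44 ± 0.298 and 11.2 ± 0.275 in DP, C-LTMR and DN. Robo sums of 14.3 ± 1.35, 14.9 ± 1.43 and 12.8 ± 1.29 overlapped between DP and each other subset, and netrin receptor sums were 6.83 ± 1.28, 11.9 ± 1.65 and 10.3 ± 0.341.

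**Figure D2:**
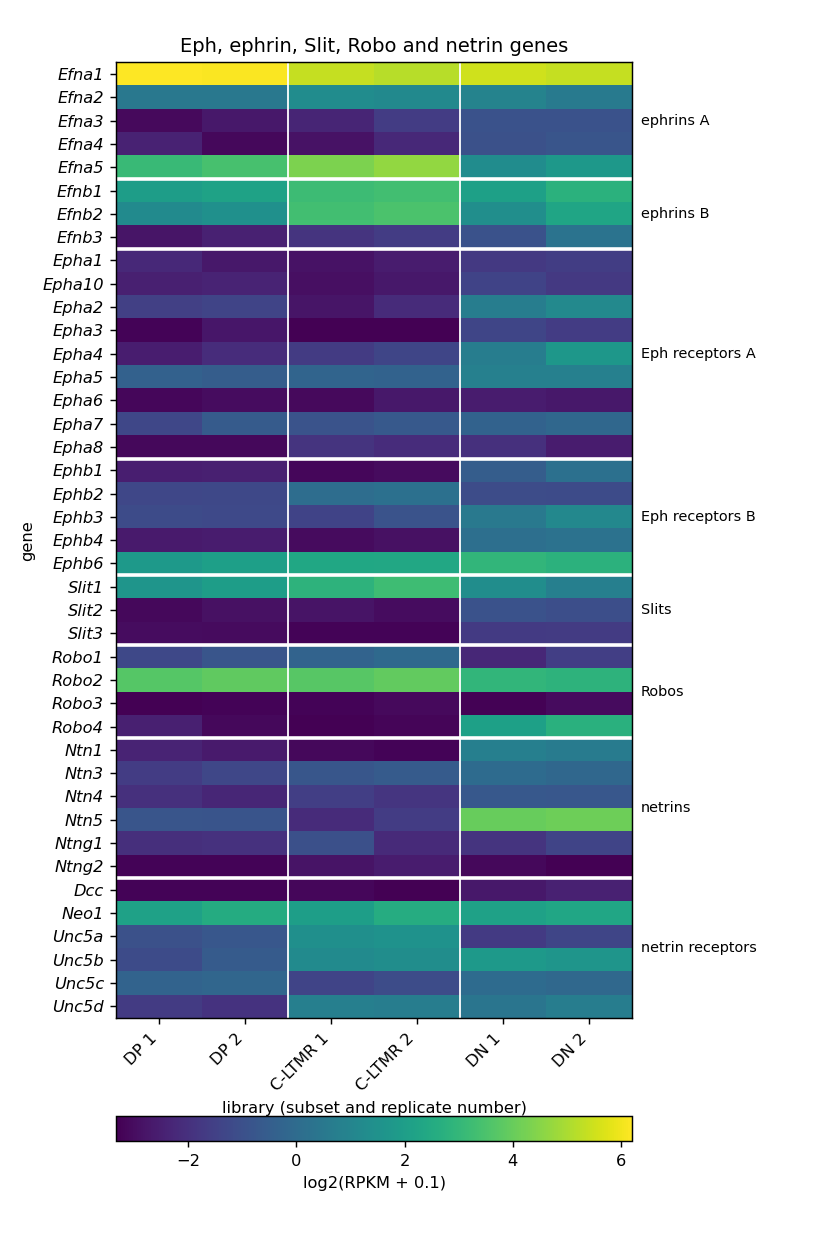
Level of all 41 genes as log2(RPKM + 0.1), one row per gene grouped by family and one column per library. Efna1 and Robo2 are high in all 6 columns; Robo4, Ntn5 and Ntn1 are high in the 2 DN columns.

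By their highest subset mean, 5 genes reached 10 RPKM (Efna1, Efna5, Ntn5, Robo2 and Efnb2), 16 lay between 1 and 10, and 20 below 1. The subset with the highest mean was DN for 25 of the 41 genes, C-LTMR for 14 and DP for 2 (Efna1 and Neo1). A gene entered the tests if it had at least 0.3 RPKM in at least 2 libraries, which 31 of the 41 members (75.6%) and 61.5% of all genes did. Epha1, Epha3, Epha6, Epha8, Epha10, Robo3, Slit3, Dcc, Ntng1 and Ntng2 were not tested; none exceeded a subset mean of 0.259 RPKM (Epha3 in DN), and their highest single value was 0.396 RPKM (Ntng1 in C-LTMR replicate 1). Dcc, the attractive netrin receptor, had at most 0.084 RPKM in a library.
Of the 31 tested genes, 11 met the 0.3 RPKM level in DN alone (Efna3, Efna4, Efnb3, Epha2, Epha4, Ephb1, Ephb4, Ntn1, Ntn4, Robo4 and Slit2). These could enter the tests only by being high in DN, so their number says nothing about the families.

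Differences were tested with limma on log2(RPKM + 0.1), with p-values adjusted by Benjamini and Hochberg over all 14165 tested genes, and a gene was called where the adjusted p was below 0.05 and the log2 difference at least 1 in size. Log2 differences are on this scale, where the change of a weakly expressed gene comes out too small, and are given with their standard error (SE). Between DP and C-LTMR, both of them neuron subsets, 10 of the 31 members were called, against 15.3% of all tested genes. Higher in C-LTMR were 8 (background 8.67%): Unc5a, Unc5b, Unc5d, Efna5, Efnb1, Efnb2, Ephb2 and Slit1. Higher in DP were 2 (background 6.64%): Ntn5 and Epha2, both at levels under 0.5 RPKM in these subsets. The median log2 difference, DP minus C-LTMR, was -0.41 over the tested members and -0.05 over all tested genes. With libraries rescaled to 18 genes that all sensory neurons use, the calls of Efna5, Slit1, Ephb2 and Efnb1 were lost and Efna1, Ephb1, Ntn1 and Unc5c were called higher in DP, so that the split turned to 6 higher in DP and 4 in C-LTMR. Markers of other cells moved in this comparison as well, in both directions. Called higher in DP (background 6.64%) were 6 of 9 immune (7 of the 9 tested), 5 of 9 mural cell and fibroblast and 3 of 9 endothelial markers. So were 1 of 8 Schwann cell and 1 of 8 satellite glia markers. Called higher in C-LTMR (background 8.67%) were 2 of 8 Schwann cell, 1 of 9 mural cell and fibroblast and 1 of 9 endothelial markers. The part of these cells in the members' differences was not tested. The libraries of these subsets did not overlap for 25 of the 31 members (70.5% of all genes): 8 were higher in DP (background 30.8%) and 17 in C-LTMR (39.7%).

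Between DP and DN, 18 of 31 members were called, against 33.1% of all genes. Efna5 was the 1 member higher in DP (background 7.96%), and 17 were higher in DN (background 25.1%), a split that was 6 to 13 after quantile normalization and 0 to 24 when rescaled to neuron genes. Of those 17, 11 are the genes that met the filter in DN alone; the other 6 were Ntn5, Unc5b, Unc5d, Ephb3, Ntn3 and Epha5. Over the 31 tested members, whose median and counts are partly set by the filter, the median was -1.39, and over the 20 that did not enter through DN alone it was -0.31, against -0.18 over all tested genes. All tested genes still include those that entered through DN alone, so their median and shares are not matched to the 20. Libraries did not overlap for 28 members (82.9% of all genes), 6 higher in DP (31.5%) and 22 in DN (51.4%); of the 20, 6 were higher in DP and 11 in DN. Between C-LTMR and DN, 20 of 31 were called, against 31.7%. Higher in C-LTMR were 6 (background 8.75%): Unc5a, Efna5, Slit1, Robo1, Efnb2 and Ephb2. Higher in DN were 14 (background 23.0%), 10 of them from the 11 genes above, and the other 4 were Ntn5, Ephb3, Unc5c and Epha5. The split of 6 to 14 was 9 to 8 after quantile normalization and 2 to 23 when rescaled to neuron genes. The median was -0.62 over the 31, 0.14 over the 20 and -0.08 over all genes, which again are not matched to the 20. Of the 31, 28 (80.6% of all genes) did not overlap, 9 higher in C-LTMR (35.3%) and 19 in DN (45.3%); of the 20, 9 were higher in C-LTMR and 8 in DN. Rescaled to neuron genes, Efna5 lost its call for DP against DN, and Robo1, Slit1, Efnb2 and Ephb2 lost theirs for C-LTMR against DN. After quantile normalization Ntn4, Ntn3, Efna4 and Epha5 lost their calls for DP against DN, and Efnb3, Efna3, Efna4, Unc5c, Slit2 and Epha5 theirs for C-LTMR against DN. With a pseudocount of 1 RPKM, which weighs low genes less, 8 and 10 members were called against DN. The 3 comparisons share libraries in pairs, so they are not independent of each other. In sorted pools of cells, a lower value from fewer expressing cells and one from less RNA per cell cannot be told apart.

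Among the ephrins A, Efna1 had 73.7 and 70.2 RPKM in DP, 41.1 and 35.8 in C-LTMR and 45.1 and 41.0 in DN. The DP libraries were highest and the other subsets overlapped. Its mean in DP was 1.87 times that in C-LTMR, a log2 difference of 0.91 ± 0.10 (limma adjusted p = 0.000858), and 1.67 times that in DN, 0.74 ± 0.10 (limma adjusted p = 0.000858), which turned to -0.20 when libraries were rescaled to neuron genes; both stayed under the threshold of size. Efna5, a lipid-anchored ligand known from the mapping of axon terminals, had 8.70 and 10.6 RPKM in DP, 19.8 and 25.3 in C-LTMR and 2.39 and 3.32 in DN. The subsets did not overlap and stood in the order C-LTMR, DP, DN. Efna5 was 2.34-fold higher in C-LTMR than in DP (log2 difference DP minus C-LTMR -1.22 ± 0.20, limma adjusted p = 0.0045), 3.37-fold higher in DP than in DN (1.73 ± 0.20, adjusted p = 0.000393) and 7.90-fold higher in C-LTMR than in DN (2.95 ± 0.20, adjusted p = 4.1e-05).
Efna1 lies on chromosome 3 (chr3:89271730-89280951, GRCm38) in a row with Efna3 and Efna4, all on the minus strand, with gaps of 34 and 10.5 kb. The neighbours did not share its level: Efna3 had 0.0194 and 0.0535 RPKM in DP, 0.0957 and 0.223 in C-LTMR and 0.423 and 0.434 in DN, and Efna4 0.0894 and 0.0164, 0.0366 and 0.116, and 0.42 and 0.464. Both were called higher in DN. Their DP means lay under the level of about 3 reads (0.0382 and 0.0581 RPKM), so no fold is given against DP (limma adjusted p = 0.0016 and 0.00332). Against C-LTMR the differences were -1.07 ± 0.31 and -1.66 ± 0.35 (adjusted p = 0.0224 and 0.00597). The call of Efna3 against C-LTMR was lost without C-LTMR replicate 1 (adjusted p = 0.126) or either DN library (0.059 and 0.0716), and its difference was 0.17 after quantile normalization. Efna2 was at 1.29 to 2.36 RPKM in all libraries and was called in no comparison.

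The ephrins B are transmembrane ligands that also signal into the cell carrying them. Efnb2, also an arterial marker, had 2.25 and 2.65 RPKM in DP, 10.02 and 11.4 in C-LTMR and 2.49 and 4.72 in DN. Both C-LTMR libraries lay above all others, and DP and DN overlapped. Its mean in C-LTMR was 4.37 times that in DP (DP minus C-LTMR -2.08 ± 0.28, limma adjusted p = 0.00192) and 2.97 times that in DN (1.61 ± 0.28, adjusted p = 0.00264). Efnb1 had 3.88 and 4.35, 9.15 and 9.92, and 4.13 and 6.76 RPKM in the same order, and was 2.32-fold higher in C-LTMR than in DP (-1.19 ± 0.22, limma adjusted p = 0.00784). That call was lost without DP replicate 1 (adjusted p = 0.0559), and against DN Efnb1 was not called (0.84 ± 0.22). Efnb3 was low, with 0.0444 and 0.0812 RPKM in DP, 0.173 and 0.222 in C-LTMR and 0.431 and 1.14 in DN, where the 2 libraries differed widely. It was called higher in DN against DP (-2.33 ± 0.41, limma adjusted p = 0.00257) and against C-LTMR (-1.45 ± 0.41, adjusted p = 0.0201), the latter lost without either C-LTMR library (adjusted p = 0.0878 and 0.0551) or DN replicate 2, when the difference was -0.84.

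Slit1 carried at least 76.3% of the Slit RNA in each subset. Its values were 3.07 and 3.84 RPKM in DP, 6.96 and 9.41 in C-LTMR and 2.48 and 1.63 in DN, with no overlap between subsets. Slit1 was 2.37-fold higher in C-LTMR than in DP (DP minus C-LTMR -1.21 ± 0.24, limma adjusted p = 0.0103) and 3.99-fold higher than in DN (1.96 ± 0.24, adjusted p = 0.000562). The first call was lost without DP replicate 1 (adjusted p = 0.0737) or C-LTMR replicate 2 (adjusted p = 0.0656). Slit2 and Slit3 were at most 0.0402 RPKM in DP and C-LTMR and stood at 0.43 and 0.384, and 0.208 and 0.215 RPKM, in DN. Slit2 was called higher in DN against DP (-2.03 ± 0.25, limma adjusted p = 0.000494) and C-LTMR (-1.95 ± 0.25, adjusted p = 0.000605), and Slit3 was not tested.

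**Figure D3:**
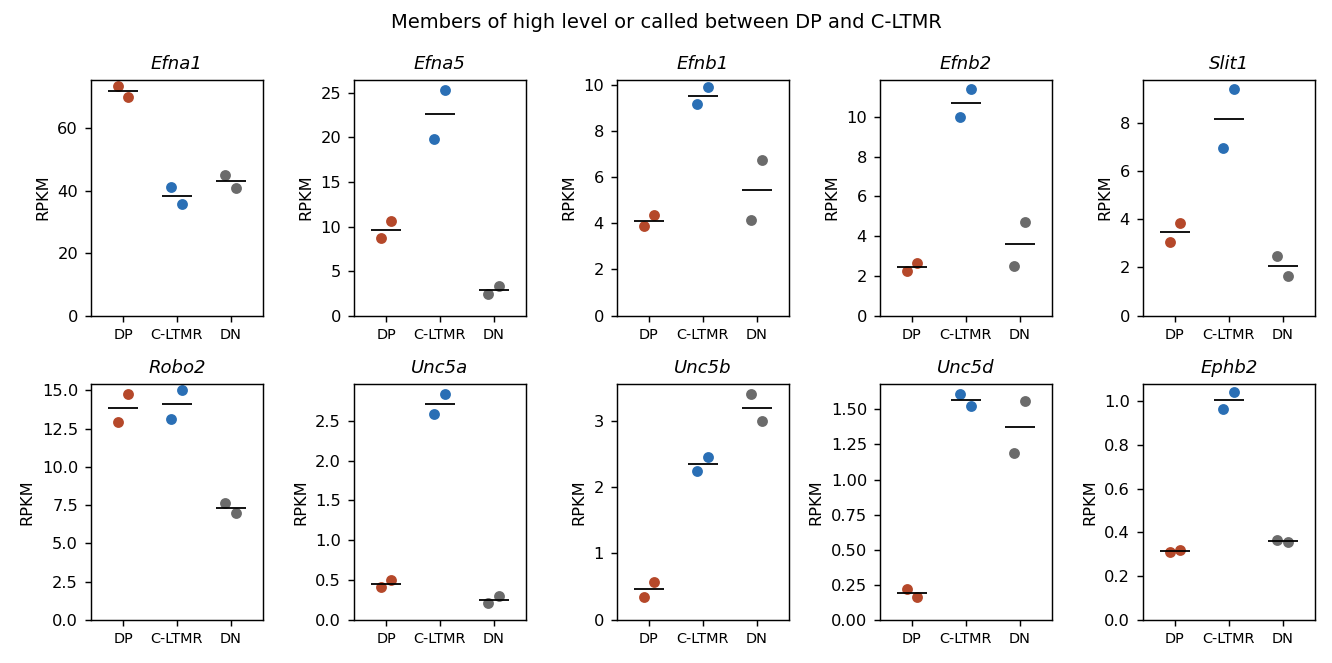
RPKM of Efna1, Efna5, Efnb2 and further members of high level or called between DP and C-LTMR, 1 panel per gene, with a point for each library and a bar at the subset mean; each axis starts at 0. Efna1 is highest in DP at 73.7 and 70.2, Efna5 in C-LTMR at 19.8 and 25.3, and Unc5d is low in DP at 0.216 and 0.161.

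Netrin RNA was most abundant in DN, where Ntn5 made up 83.9% of it. Ntn5, a less studied secreted netrin (chr7:45684414-45694554), had 0.472 and 0.461 RPKM in DP, 0.126 and 0.227 in C-LTMR and 15.6 and 17.2 in DN. Its DN mean was 35.2 times that in DP (DP minus DN -4.87 ± 0.21, limma adjusted p = 1e-05) and 92.8 times that in C-LTMR (-5.92 ± 0.21, adjusted p = 5.3e-06). Ntn5 overlaps Sec1 on the other strand, which had 3.48 and 5.20 RPKM in DN against 0.298 to 1.19 in the other libraries; whether counting used strand is not given in the sources used here, so their reads cannot be told apart. The smaller difference between DP and C-LTMR (1.06 ± 0.21, limma adjusted p = 0.0106) was lost without either DP library (adjusted p = 0.0648 and 0.0568), and without C-LTMR replicate 1 it was 0.79.
Ntn1, the classical axon attractant, had 1.61 and 1.48 RPKM in DN and 0.0911 and 0.0591 in DP (-3.24 ± 0.23, limma adjusted p = 4.9e-05). Its values in C-LTMR, 0.0153 and 0.0054, were near or under the level of about 3 reads (0.0148 RPKM), so no fold is given (limma adjusted p = 2.3e-05). Ntn4, a basement membrane netrin, had 0.147 and 0.102, 0.244 and 0.178, and 0.511 and 0.494 RPKM in DP, C-LTMR and DN, and was called against DP (-1.43 ± 0.24, limma adjusted p = 0.00194). Ntn3, which overlaps Tbc1d24 on the same strand, had 0.225 and 0.312, 0.486 and 0.562, and 0.913 and 0.802 RPKM, and was called against DP (-1.39 ± 0.22, limma adjusted p = 0.0015). Tbc1d24 had 0.637 and 0.560 RPKM in DP, 1.06 and 1.11 in C-LTMR and 1.53 and 1.31 in DN. How shared reads were counted is not given in the sources used here, so the reads of Ntn3 and Tbc1d24 cannot be told apart. Quantile normalization ended both calls, at -0.34 for Ntn4 and -0.37 for Ntn3, and neither was called between C-LTMR and DN. The membrane-anchored netrins G, Ntng1 and Ntng2, stayed at or under 0.396 RPKM in each library.

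Among the netrin receptors, 3 of the 4 UNC5 genes were low in DP and higher in C-LTMR. Unc5a (chr13:54949432-55005984), whose promoter is printed above, had 0.412 and 0.498 RPKM in DP, 2.59 and 2.83 in C-LTMR and 0.208 and 0.297 in DN. It was 5.95-fold higher in C-LTMR than in DP (DP minus C-LTMR -2.34 ± 0.21, limma adjusted p = 0.000338) and 10.7-fold higher than in DN (3.004 ± 0.21, adjusted p = 4.7e-05). Unc5b, also known from vessels, had 0.348 and 0.574, 2.24 and 2.46, and 3.40 and 2.99 RPKM, and Unc5d 0.216 and 0.161, 1.61 and 1.53, and 1.19 and 1.56. Unc5b was 5.10-fold higher in C-LTMR than in DP (-2.15 ± 0.23, limma adjusted p = 0.000623) and Unc5d 8.30-fold higher (-2.54 ± 0.21, adjusted p = 0.000248). Both were also higher in DN than in DP, by -2.58 ± 0.23 (limma adjusted p = 0.000115) and -2.35 ± 0.21 (adjusted p = 0.000128), and neither was called between C-LTMR and DN (-0.43 ± 0.23 and 0.19 ± 0.21). Unc5a was thus called higher in C-LTMR against both other subsets, and Unc5b and Unc5d lower in DP against both.
Unc5c went the other way between the neuron subsets, with 0.713 and 0.78 RPKM in DP, 0.292 and 0.366 in C-LTMR and 0.916 and 0.82 in DN. It was called higher in DN than in C-LTMR (-1.18 ± 0.20, limma adjusted p = 0.00214; -0.21 and not called after quantile normalization), and the DP minus C-LTMR difference of 0.98 ± 0.20 (adjusted p = 0.00997) missed the threshold of size. Neo1, which encodes neogenin, had 4.003 to 5.89 RPKM in all 6 libraries and overlapped in every pair of subsets, with differences of 0.02 ± 0.22, 0.11 ± 0.22 and 0.09 ± 0.22. It was the most abundant netrin receptor of each subset, from 41.2% to 72.6% of the family's RPKM.

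Robo2 had the highest mean of the 24 receptors in each subset, though close to Ephb6 in DN (7.31 and 7.26 RPKM). It had 12.9 and 14.8 RPKM in DP, 13.2 and 15.02 in C-LTMR and 7.62 and 7.001 in DN. DP and C-LTMR overlapped (-0.02 ± 0.12, limma adjusted p = 0.905). Both lay above DN, by 0.91 ± 0.12 (limma adjusted p = 0.000727) and 0.94 ± 0.12 (adjusted p = 0.000655), under the threshold of size; rescaled to neuron genes these values were -0.03 and -0.60. Robo1, its neighbour 846 kb away on chromosome 16, had 0.317 and 0.475, 0.725 and 0.853, and 0.108 and 0.241 RPKM, and was called higher in C-LTMR than in DN (1.73 ± 0.31, limma adjusted p = 0.00279).
Robo4 (chr9:37402046-37414022), a Robo known from endothelial cells, had 4.17 and 6.46 RPKM in DN, 0.0773 and 0.0142 in DP, and 0 and 0.00839 in C-LTMR. Its call against DP was -5.22 ± 0.31 (limma adjusted p = 2.7e-05). The C-LTMR values lie under the level of about 3 reads (0.0175 RPKM), so no fold is given (limma adjusted p = 1.9e-05). Robo3, which starts 2.02 kb beyond the end of Robo4 and is known from axons that cross the midline, had at most 0.0204 RPKM in a library.

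Of the Eph receptors, Ephb6 was the most abundant, at 3.51 and 4.03 RPKM in DP, 4.96 and 5.11 in C-LTMR and 7.70 and 6.81 in DN. Its product lacks kinase activity. The subsets did not overlap, but no difference reached the threshold of size (-0.41 ± 0.13, -0.93 ± 0.13 and -0.52 ± 0.13 for DP minus C-LTMR, DP minus DN and C-LTMR minus DN). Ephb2, a receptor for ephrins B, was the 1 Eph receptor called higher in C-LTMR, with 0.308 and 0.321 RPKM in DP, 0.965 and 1.04 in C-LTMR and 0.365 and 0.357 in DN. It was 3.19-fold higher in C-LTMR than in DP (-1.41 ± 0.19, limma adjusted p = 0.00173) and 2.78-fold higher than in DN (1.26 ± 0.19, adjusted p = 0.00123), the latter turning to -0.28 when rescaled to neuron genes.
Ephb1, Ephb3 and Ephb4 were called higher in DN against both neuron subsets. Ephb4, the ephrin-B2 receptor known from veins, had 0.0599 and 0.0658 RPKM in DP, 0.0201 and 0.0355 in C-LTMR and 1.01 and 1.10 in DN (-2.83 ± 0.22 and -3.18 ± 0.22, limma adjusted p = 7.5e-05 and 4.6e-05). Ephb3 had 0.35 and 0.334, 0.275 and 0.448, and 1.35 and 2.09 RPKM (-2.01 ± 0.28 and -1.98 ± 0.28, limma adjusted p = 0.000942 and 0.00107). Ephb1 had 0.0764 and 0.0783, 0.0125 and 0.0198, and 0.593 and 1.05 RPKM (-2.33 ± 0.30 against DP, limma adjusted p = 0.000609); in C-LTMR it was near the level of about 3 reads, 0.0133 RPKM.

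The Eph receptors A were low in both neuron subsets. Epha5 and Epha7 were the most abundant there, Epha5 at 0.677 and 0.608 RPKM in DP, 0.744 and 0.694 in C-LTMR and 1.69 and 1.68 in DN. Epha5 was called higher in DN against DP (-1.26 ± 0.17, limma adjusted p = 0.000744) and C-LTMR (-1.12 ± 0.17, adjusted p = 0.00131). After quantile normalization the differences were -0.38 and -0.36 and neither was called. Epha7 had 0.304 to 0.803 RPKM and was not called. Epha4, which binds ephrins of both classes, had 0.0714 and 0.132 RPKM in DP, 0.215 and 0.298 in C-LTMR and 1.56 and 3.16 in DN (-3.55 ± 0.36 and -2.72 ± 0.36, limma adjusted p = 0.000217 and 0.000737). Epha2 had 0.248 and 0.285, 0.0445 and 0.126, and 1.52 and 2.16 RPKM (-2.39 ± 0.29 and -3.41 ± 0.29, limma adjusted p = 0.000518 and 0.00011). Its DN mean was 6.92 times that in DP. The DP minus C-LTMR call of Epha2 (1.02 ± 0.29, limma adjusted p = 0.0402) was lost without either DP library (adjusted p = 0.13 and 0.172) or without C-LTMR replicate 1 (adjusted p = 0.182). Ephrin A RNA was thus abundant in the DP and C-LTMR subsets, in which no Eph A receptor exceeded a subset mean of 0.719 RPKM.

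**Figure D4:**
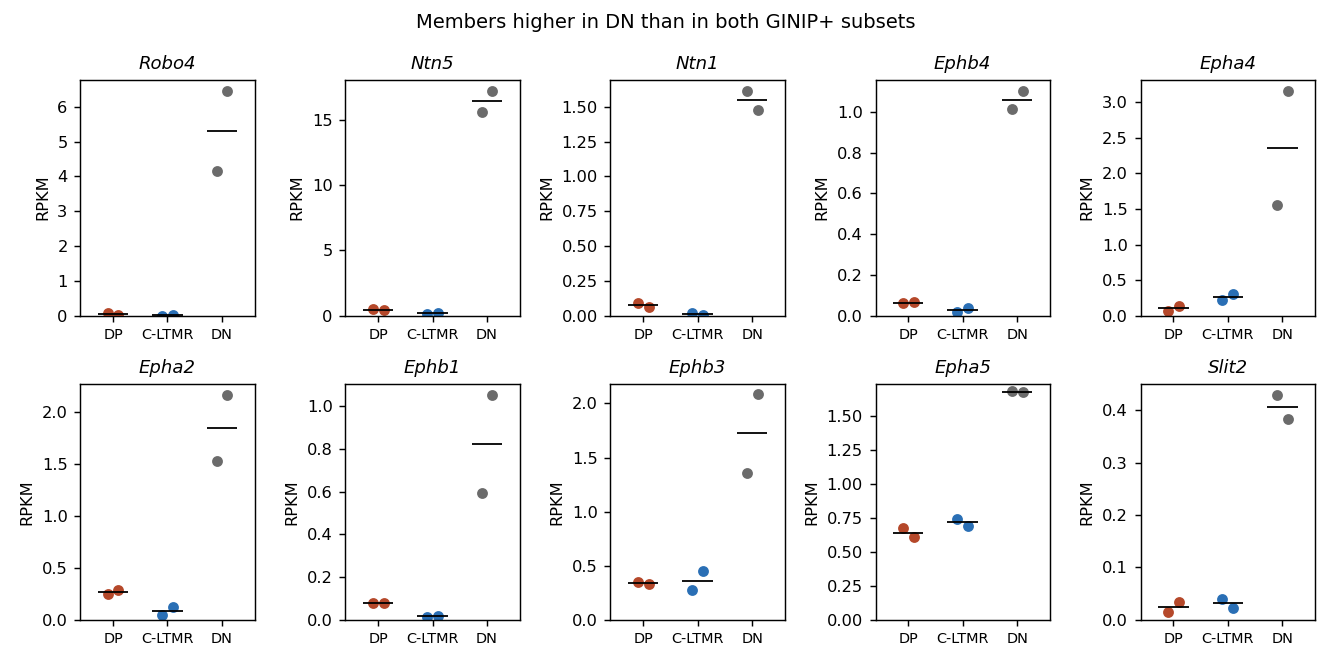
RPKM of Ntn5, Robo4 and further members called higher in DN, 1 panel per gene, with a point for each library and a bar at the subset mean; each axis starts at 0. Ntn5 reaches 15.6 and 17.2 in DN and Robo4 4.17 and 6.46, with the DP and C-LTMR points near 0.

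Markers of non-neuronal cells and of other neurons also differed between DN and the sorted neuron subsets. Of all tested genes, 25.1% were called higher in DN against DP and 23.0% against C-LTMR. All 9 endothelial, 8 of 8 satellite glia and 7 of 8 Schwann cell markers were called higher in DN against DP. The numbers were the same against C-LTMR. Of 9 mural cell and fibroblast markers, 8 were called higher in DN in each comparison, but not the same 8. Pdgfrb had 3.93 and 4.17 RPKM in DP and 2.25 and 3.21 in DN, and Pdgfra was higher in C-LTMR. Of 9 immune markers (7 tested), 4 were called higher in DP and 2 in DN, and 5 were called higher in DN against C-LTMR. Of 7 peptidergic neuron markers (6 tested), 5 were called higher in DN in each comparison, and 1 was higher in DP. Myelinated neuron markers (9 genes, 8 tested) went both ways. Against DP, 3 were called higher in DN and 1 in DP, and against C-LTMR, 3 were called higher in DN and 2 in C-LTMR. The endothelial markers Cdh5, Kdr and Vwf were under 0.1 RPKM in DP on average, and these 3 with Emcn, Flt1 and Tek in C-LTMR. The 2 DN libraries differed in these markers: replicate 2 held 1.72 times the endothelial sum of replicate 1, 2.32 times the satellite glia sum, 1.44 times the mural cell and fibroblast sum and 1.75 times the immune sum, against 0.948 for Schwann cells, 0.904 for peptidergic neurons and 0.786 for myelinated neurons.
The same ratio of DN replicate 2 to replicate 1 is given for the 18 members called higher in DN against either neuron subset. It was 2.64 for Efnb3, 2.03 for Epha4, 1.77 for Ephb1, 1.55 for Robo4, 1.54 for Ephb3 and 1.42 for Epha2. It was 1.31 for Unc5d and lay between 0.879 and 1.11 for the other 11, among them Ntn5 (1.10), Ephb4 (1.09), Epha5 (0.995) and Ntn1 (0.915). For the 6 members called higher in C-LTMR against DN it was 2.23 for Robo1, 1.90 for Efnb2, 1.43 for Unc5a, 1.39 for Efna5, 0.977 for Ephb2 and 0.658 for Slit1. With 2 libraries these ratios are descriptions, and the part of non-neuronal cells or of other neurons in the DN values was not tested.

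**Figure D5:**
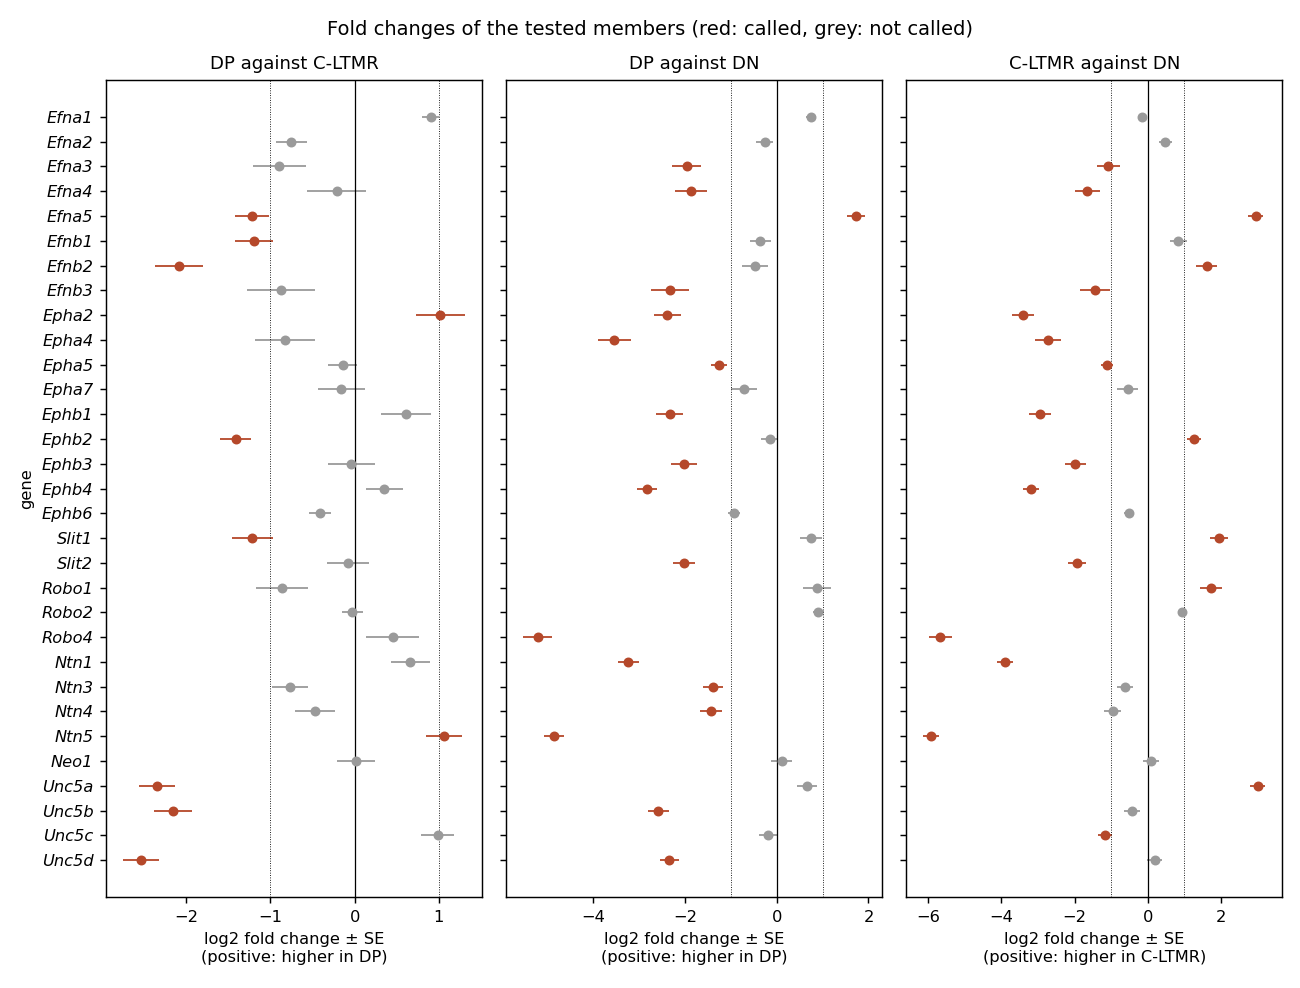
Log2 difference of the 31 tested genes in the 3 comparisons, with bars of 1 SE; red points are called and grey points are not. Unc5a, Unc5b and Unc5d lie at -2.34, -2.15 and -2.54 for DP minus C-LTMR, and Ntn5 and Robo4 at -4.87 and -5.22 for DP minus DN; the fitted value of Robo4 against C-LTMR rests on values near 0 reads and is no fold.

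Partner genes of these pathways were listed by function, with earlier results of these data known. Their counts stand against the shares of all tested genes called, 15.3% for DP against C-LTMR (6.64% higher in DP, 8.67% in C-LTMR), 33.1% for DP against DN (7.96% and 25.1%) and 31.7% for C-LTMR against DN (8.75% and 23.0%). Of 28 tested partners of Eph and ephrin signalling, 10 were called between DP and C-LTMR, 6 of them higher in DP. Against DN, 5 were called higher in DP and 8 lower, and 4 were called higher in C-LTMR and 8 lower. Vav3, an exchange factor that acts downstream of Eph receptors, had a mean of 16.6 RPKM in C-LTMR against 3.61 in DP and 0.761 in DN (DP minus C-LTMR -2.18 ± 0.15, limma adjusted p = 0.000135). Chn2, a chimaerin that turns off Rac, had 8.89 RPKM in C-LTMR and 0.954 in DP (-3.11 ± 0.18, limma adjusted p = 7.5e-05). Among those higher in DP, Anks1b had 12.3 RPKM in DP and 2.39 in C-LTMR (2.31 ± 0.24, limma adjusted p = 0.000599). Kalrn had 3.40 and 0.524 (2.49 ± 0.20, limma adjusted p = 0.000226), and Grip2 1.18 and 0.0436 (3.15 ± 0.25, adjusted p = 0.000199). Ngef, the ephexin that acts downstream of EphA4, had 2.82 RPKM in DN and 0.226 in DP (-3.18 ± 0.23, limma adjusted p = 5.6e-05).
Of 19 tested partners of Slits and Robos, 7 were called between DP and C-LTMR, 5 of them higher in DP. Against DN, 1 was called higher in DP and 4 lower, and 3 were called higher in C-LTMR and 7 lower. Sdc1, a heparan sulfate proteoglycan, had 34.6 RPKM in DP and 1.76 in C-LTMR (4.25 ± 0.19, limma adjusted p = 4e-05), and the proteoglycan Gpc1, which binds Slits, 15.4 and 60.8 (-1.98 ± 0.14, adjusted p = 0.000135). The Robo3 ligands of the Nell family were split, with Nell1 at 5.85 RPKM in DP and 0.338 in C-LTMR (3.87 ± 0.35, limma adjusted p = 0.000333) and Nell2 at 0.212 and 2.86 (-3.24 ± 0.27, adjusted p = 0.000251). Flrt3, a membrane protein that binds Robo1, had 13.0 RPKM in DP and 1.66 in C-LTMR (2.90 ± 0.12, limma adjusted p = 3.5e-05). Of 20 tested netrin partners, 3 were called between DP and C-LTMR, 1 of them higher in DP, which is at the background. Against DN, 1 was called higher in DP and 8 lower, and 1 was called higher in C-LTMR and 7 lower. Dscam, a netrin receptor outside the DCC and UNC5 families, had a mean of 2.56 RPKM in DP and 1.30 in C-LTMR, against 0.229 in DN (DP minus DN 3.02 ± 0.21, limma adjusted p = 4.3e-05), while Draxin, a secreted netrin antagonist, had 1.25 in DN and 0.116 in DP (-2.65 ± 0.22, adjusted p = 9.9e-05).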

How the data were processed

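RNA of sorted DRG cells was amplified before TruSeq libraries were made, per the labels' protocols. The authors deposited an RPKM table of 23029 genes (main source) and a table of 6620 genes whose TMM-normalized counts are a normalized signal, not raw counts, and which holds 7 of the members. The submitters' processing notes name CASAVA 1.8.2, edgeR 2.6.2 and the build GRCm38 (mm10); for the annotation, strand use and the tool behind each step, the answer is "not given in the sources used here". Amplification can favour parts of a transcript, and this stays in the values.

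From the RPKM, log2(RPKM + 0.1) of the 14165 genes with at least 0.3 RPKM in at least 2 libraries was fitted with limma 3.58.1 (R 4.3.3; 1 fit over all 6 libraries, trend, 3 residual degrees of freedom), and summaries were made with Python 3.11.15. Whole reads could not be recovered, since the share of low values no more than 0.05 from a whole read was 39.8% to 51.4%, so no count model was used. Depth (32.3 to 42.1 M reads) is an estimate, and the level of 3 reads given for a gene covers counting error only. The fit was run on simulated data with independent noise and no scale differences between libraries, so this checks the code and not these results. Alternatives were other pseudocounts, filters and scalings (quantile, 18 neuron genes, median), the TMM table, a replicate block, fits of 4 libraries, no trend and each library left out. Where a library was left out, the genes were still those that passed the filter on all 6 libraries.

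Members called or above 5 RPKM are given in full, and others by range; from each partner list at most 3 called genes per direction were eligible. Grb4 and Rgmc, listed as partners, matched no symbol. The members and lists were chosen with earlier results of these data known.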

Additional observations from a re-analysis of the deposited data

How the results depend on the processing

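The number of called members was 10, 18 and 20 for DP against C-LTMR, DP against DN and C-LTMR against DN (2168, 4687 and 4491 of all genes). In the TMM table, which lists 7 members, it was 4, 1 and 3 (843, 1645 and 1562 genes). Of the called members listed there, 0 lost their call. With a pseudocount of 1 RPKM it was 8 for DP against DN and 10 for C-LTMR against DN, and 1196 genes for DP against C-LTMR. With a filter of 1 RPKM it was 11 and 12 for the comparisons with DN, and 0 of the called members still tested lost their call. Fits without 1 library kept the genes that had passed the filter on all 6 libraries. The 11 members that met the filter in DN alone thus stayed in when a DN library was left out. These fits therefore do not check the filter. Without DP replicate 1, Slit1 (-1.06), Epha2 (1.09), Ntn5 (1.04) and Efnb1 (-1.11) lost their calls for DP minus C-LTMR.

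Rescaling to neuron genes gave 8420 and 11936 called genes for the comparisons with DN and moved the median log2 difference of all genes from -0.05, -0.18 and -0.08 to 0.55, -1.12 and -1.62; quantile normalization moved it to 0.02, 0.15 and 0.17. The share of calls higher in the first subset moved with it: from 43.4% to 78.4% (neuron genes) for DP against C-LTMR, from 24.0% to 5.26% (neuron genes) or 47.2% (quantile) for DP against DN, and from 27.6% to 2.84% or 48.9% for C-LTMR against DN. The called members split 6 to 4 (neuron genes, 2 to 8 as reported) for DP against C-LTMR, 6 to 13 (quantile) or 0 to 24 (neuron genes) for DP against DN, and 9 to 8 or 2 to 23 for C-LTMR against DN. How many members are called in each direction thus depends on the scale, while of the members called as reported 0 changed sign for DP against DN and 2 values did for C-LTMR against DN. Under the neuron-gene scale Efna1 (DP minus DN) was -0.20 and Ephb2 (C-LTMR minus DN) -0.28, and the calls of Efna5 (-0.61), Slit1 (-0.61), Ephb2 (-0.81) and Efnb1 (-0.59) for DP minus C-LTMR, Efna5 (0.79) for DP minus DN, and Slit1 (0.42), Robo1 (0.19) and Efnb2 (0.07) for C-LTMR minus DN were lost. Under quantile normalization Efna3 (C-LTMR minus DN) was 0.17, and calls were lost for Ntn4 (-0.34), Ntn3 (-0.37), Efna4 (-0.88) and Epha5 (-0.38) against DP and for Efnb3 (-0.33), Efna4 (-0.34), Unc5c (-0.21), Slit2 (-0.59) and Epha5 (-0.36) against C-LTMR, all with DN higher; Epha2 (0.87) and Efnb1 (-0.998) lost theirs for DP minus C-LTMR. The cause was not tested.

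Across the alternatives run for each member (15 to 17, since the TMM table and the stricter filter leave some out), 4 of 10, 7 of 18 and 8 of 20 called members kept their call. Unc5a, Unc5b, Unc5d and Efnb2 did so for DP against C-LTMR. Among those kept against DN, Ntn1, Epha2, Epha4 and Robo4 in both comparisons, and Ephb4 for C-LTMR, had met the filter in DN alone. That these kept their calls says nothing about the families. Replicate numbers are shared between subsets, but the labels do not say that a number marks a shared animal or day. Deviations of same-numbered libraries correlated with r of 0.338, 0.0975 and 0.265, and with a replicate block the fit called 10, 18 and 20 members (2240, 4720 and 4509 genes).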
